A study of Mus musculus with 12 samples.

Results

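The genes described here build the DNA replication machinery or supply its deoxynucleotides: 43 genes were listed, and every probe annotated to one of them was taken. The arrays carried 74 such probes for 41 of the 43 genes, of 17711 genes with a probe in all. No probe was annotated to Mcm3 or Gins1, which are not analysed here. RNA came from 6 mouse cell lines derived from tumours, 3 labelled with constitutively active STAT3 and 3 labelled wild-type for STAT3, a transcription factor activated by cytokine and growth factor receptors. Each line was hybridised to 2 Illumina bead arrays after growth in the same serum-containing RPMI medium with no treatment, and the stated comparison is between the genotypes. The labels give neither the tumour tissue, strain or age of the animals, nor the STAT3 allele and what drives it, nor whether a line was cultured separately for its 2 arrays. P-values from contrasts of lines therefore reflect array spread alone, which may be technical. The lines are called active lines 1 to 3 and wild-type lines 1 to 3 below, by the numbers in the labels.

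Replication begins with the loading of the MCM helicase on DNA at origins, a step called licensing that the origin recognition complex, Cdc6 and Cdt1 carry out in G1 phase and geminin blocks afterwards. In S phase Cdc45 and the GINS complex switch the helicase on, RPA coats the unwound strands, primase with polymerase alpha starts new strands, and polymerases delta and epsilon extend them on the PCNA clamp. Ribonucleotide reductase, thymidylate synthase, thymidine kinase and dUTPase supply or guard the nucleotide pool. Many of these genes are transcribed in late G1 and S phase under E2F transcription factors, and their transcripts are commonly used as markers of cycling cells. In RNA from whole cultures, more cells in S phase and more transcript per cell cannot be told apart.

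Signal is given on a log2 scale after background correction and quantile normalization, and a gene was tested on its brightest probe if that probe was detected in at least 3 of the 6 lines. Of the 41 genes, 36 passed, and all 36 were detected on all 12 arrays. The other 5 were Orc1, Orc2, Gmnn (geminin), Pola1 and Prim1. One Orc2 probe was detected on 2 arrays and no other probe of these genes on any. Detected probes numbered 11002 to 12798 per array, of 46632, and both arrays of each line agreed closely (correlation 0.993 to 0.998 over genes). Active line 3 lay inside that range, with 11723 and 11463 probes detected. The keratins Krt8 and Krt18 and the adhesion gene Cdh1 were detected on all 12 arrays, while none detected Epcam or any of the 6 leukocyte markers with a probe. The keratin Krt19 was detected on 8 arrays. Of 5 endothelial markers Kdr was detected on all 12 arrays and the other 4 on none. Of 8 fibroblast markers Pdgfra was detected on all 12 arrays, Thy1 and Col1a1 on 2 each and the other 5 on none.

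Of the 36 genes 32 differed between lines, beside 77.6% of all 7306 tested genes. None of the 36 or of all tested genes passed the threshold between genotypes, and active line 3 stood highest. In active line 3, 29 of 36 genes were higher than in the mean of the other 5 lines and none was lower at an adjusted p under 0.05, where 28.3% of all 7306 tested genes were higher and 24.4% lower. That line had the highest mean of the 6 lines for 31 of the 36 genes, which it had for 26.6% of all genes. The median gene stood 0.30 above the six-line mean in active line 3, against 0.03 for all genes. In the other lines this median was -0.06 in active line 1, -0.04 in active line 2, 0.02 in wild-type line 1, -0.13 in wild-type line 2 and -0.04 in wild-type line 3. Both arrays of active line 3 showed it, with 35 and 33 of 36 genes above their six-line mean, while no other array had more than 18.

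**Figure D1:**
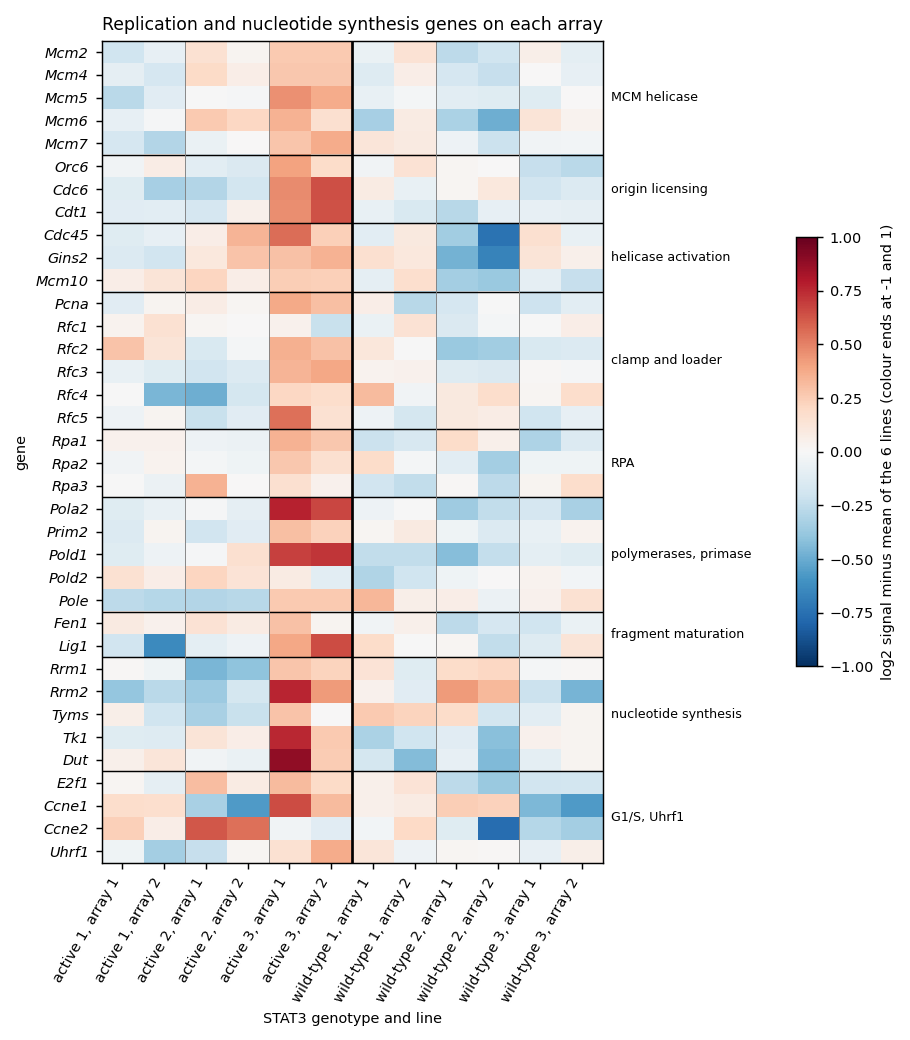
Heat map of the 36 tested replication and nucleotide synthesis genes (down the page, by role) on the 12 arrays (across, by line), each cell giving log2 signal minus the mean of the 6 line means. Both columns of active line 3 are above that mean for 35 and 33 of 36 genes, while wild-type line 2 has the lowest line mean for 15 of 36.

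The count depended on scaling and on 1 array. With arrays scaled by their medians instead of by quantiles, 17 of 36 genes were higher in active line 3 and none was lower. Of all genes 13.3% were higher and 15.5% lower under that scaling. The median gene then stood 0.34 above the six-line mean, against 0.01 for all genes. The authors' processed log2 values gave 30 higher and none lower, beside 28.5% and 24.8% of all genes. Without the array labelled replicate 1 of that line 20 of 36 were higher. Leaving any of the other lines out of the comparison gave 28 to 30. The share of all genes was not computed without that array and is not given here for a line left out. The summed signal of the epithelial markers was also highest in active line 3, at 14.98, against 14.58 to 14.84 in the other lines on the log2 scale. Of the 4 epithelial markers tested, Krt19, Krt8 and Krt18 were higher there. Its part in the replication result was not tested.

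Promoters of several of these genes carry letters of the E2F site, and the following 5 are shown because their genes were higher in active line 3 and hold such letters within 200 bases before the start. A sixth such stretch, of Uhrf1, is not printed because it lies downstream of another annotated start of that gene. The sequences are from RefSeq on the mouse assembly GRCm38.p6, 5′ to 3′ on the strand of the gene. Capitals mark the E2F-type motifs searched (TTTCCCGC, TTTCGCGC, TTTGCCGC and TTTGGCGC) and the NF-Y-type motif CCAAT, each on both strands.
Cdc6: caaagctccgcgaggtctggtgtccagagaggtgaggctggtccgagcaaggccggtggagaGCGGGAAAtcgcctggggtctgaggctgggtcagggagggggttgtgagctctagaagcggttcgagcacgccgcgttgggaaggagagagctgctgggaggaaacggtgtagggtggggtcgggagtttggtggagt
Mcm5: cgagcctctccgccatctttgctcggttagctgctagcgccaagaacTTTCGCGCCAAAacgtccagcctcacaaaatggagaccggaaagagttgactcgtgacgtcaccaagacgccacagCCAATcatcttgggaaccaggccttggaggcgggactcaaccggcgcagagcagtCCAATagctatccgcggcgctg
Mcm6: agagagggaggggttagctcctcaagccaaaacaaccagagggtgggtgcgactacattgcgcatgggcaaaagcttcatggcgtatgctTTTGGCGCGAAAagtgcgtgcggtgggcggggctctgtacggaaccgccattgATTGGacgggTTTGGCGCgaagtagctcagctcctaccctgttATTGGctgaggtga
Mcm7: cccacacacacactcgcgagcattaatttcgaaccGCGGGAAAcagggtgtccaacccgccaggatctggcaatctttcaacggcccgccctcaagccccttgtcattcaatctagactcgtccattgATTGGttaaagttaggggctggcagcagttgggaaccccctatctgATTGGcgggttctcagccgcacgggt
Rfc3: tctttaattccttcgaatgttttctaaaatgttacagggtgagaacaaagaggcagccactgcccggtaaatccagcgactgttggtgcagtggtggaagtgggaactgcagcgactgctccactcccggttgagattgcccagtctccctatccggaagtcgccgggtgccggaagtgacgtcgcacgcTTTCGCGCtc

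The Cdc6 stretch is chr11:98907951-98908150 on the plus strand, with an E2F-type match at position -138 from the start. The Mcm5 stretch is chr8:75109309-75109508 on the plus strand, and its run of capitals nearest the 5′ end is a pair of overlapping E2F-type matches on opposite strands. Such an overlapping pair also lies in the Mcm6 stretch, chr1:128359706-128359905 on the minus strand, with another E2F-type match at position -47. Mcm7 is shown at chr5:138171884-138172083 and Rfc3 at chr5:151651209-151651408, both on the minus strand, with 1 E2F-type match each. Within 250 bases before to 50 after a start, 12 of the 35 listed genes with a RefSeq promoter held an E2F-type motif (34.3%), as did 9 of 24 that were higher in active line 3 (37.5%). The motif stood in 5.17% of tested genes with a promoter and in 2.6% of all 27025 genes with one. CCAAT stood in 22 of the 35 (62.9%), against 43.1% of tested genes. A match describes letters in this window and was not measured as a binding site.

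All 5 tested subunits of the MCM helicase, Mcm2, Mcm4, Mcm5, Mcm6 and Mcm7, were higher in active line 3. Mcm5 read 13.54 and 13.45 on the arrays of active line 3, against 12.81 and 12.96 in active line 1, 13.07 and 13.07 in active line 2, 13.00 and 13.06 in wild-type line 1, 12.97 and 12.96 in wild-type line 2 and 12.96 and 13.09 in wild-type line 3. Both arrays of active line 3 lay above every other array, and the difference from the other 5 lines was 0.50 (SE 0.0682, 1.41-fold, adjusted p = 8.44e-05). Mcm6, whose promoter holds 3 E2F-type matches, read 11.58 and 11.39 on the arrays of active line 3, against 11.14 and 11.22 in active line 1, 11.49 and 11.43 in active line 2, 10.90 and 11.31 in wild-type line 1, 10.91 and 10.74 in wild-type line 2 and 11.35 and 11.26 in wild-type line 3. Here active line 2 overlapped active line 3, and wild-type line 2 was lowest. The Mcm6 difference of 0.31 (SE 0.0998, 1.24-fold, adjusted p = 0.0226) was 0.21 without replicate 1 of active line 3 (adjusted p = 0.239), and 0.35 with median scaling, where it did not pass either. Mcm2, Mcm4 and Mcm7 were higher by 0.31, 0.33 and 0.39 on the log2 scale. A second Mcm7 probe ran the other way, at 8.52 in active line 3 against 8.94 to 9.33 in the other lines, so the Mcm7 call rests on the brighter probe.

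Among the licensing genes, all 3 that could be tested were higher in active line 3. Cdc6, the ATPase that helps the origin recognition complex load the helicase, read 7.98 and 8.15 on the arrays of active line 3, against 7.38 and 7.17 in active line 1, 7.21 and 7.33 in active line 2, 7.59 and 7.43 in wild-type line 1, 7.53 and 7.61 in wild-type line 2 and 7.32 and 7.37 in wild-type line 3. Active line 3 stood clear of all other arrays, by 0.67 (SE 0.0808, 1.59-fold, adjusted p = 3.11e-05) from the mean of the other 5 lines. Cdt1, the loading partner that geminin inhibits, read 9.99 and 10.17 on the arrays of active line 3, against 9.42 and 9.43 in active line 1, 9.37 and 9.58 in active line 2, 9.46 and 9.38 in wild-type line 1, 9.26 and 9.45 in wild-type line 2 and 9.45 and 9.44 in wild-type line 3. Its difference was 0.66 (SE 0.0804, 1.58-fold, adjusted p = 3.26e-05), again with no overlap. Orc6, a subunit of the origin recognition complex, was higher by 0.35.

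The genes that activate the helicase separated lines at both ends. Cdc45, a subunit of the working helicase, read 8.55 and 8.23 on the arrays of active line 3, against 7.87 and 7.91 in active line 1, 8.06 and 8.32 in active line 2, 7.89 and 8.08 in wild-type line 1, 7.64 and 7.25 in wild-type line 2 and 8.15 and 7.92 in wild-type line 3. Its mean was highest in active line 3, one array of which lay below an array of active line 2, and lowest in wild-type line 2. Active line 3 was above the other 5 lines by 0.48 (SE 0.12, 1.39-fold, adjusted p = 0.00572), a difference of 0.32 without its replicate 1 (adjusted p = 0.129), and of 0.42 with median scaling, where it did not pass either. Gins2, a GINS subunit, and Mcm10, which assists helicase activation, were higher in active line 3 by 0.38 and 0.29.

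**Figure D2:**
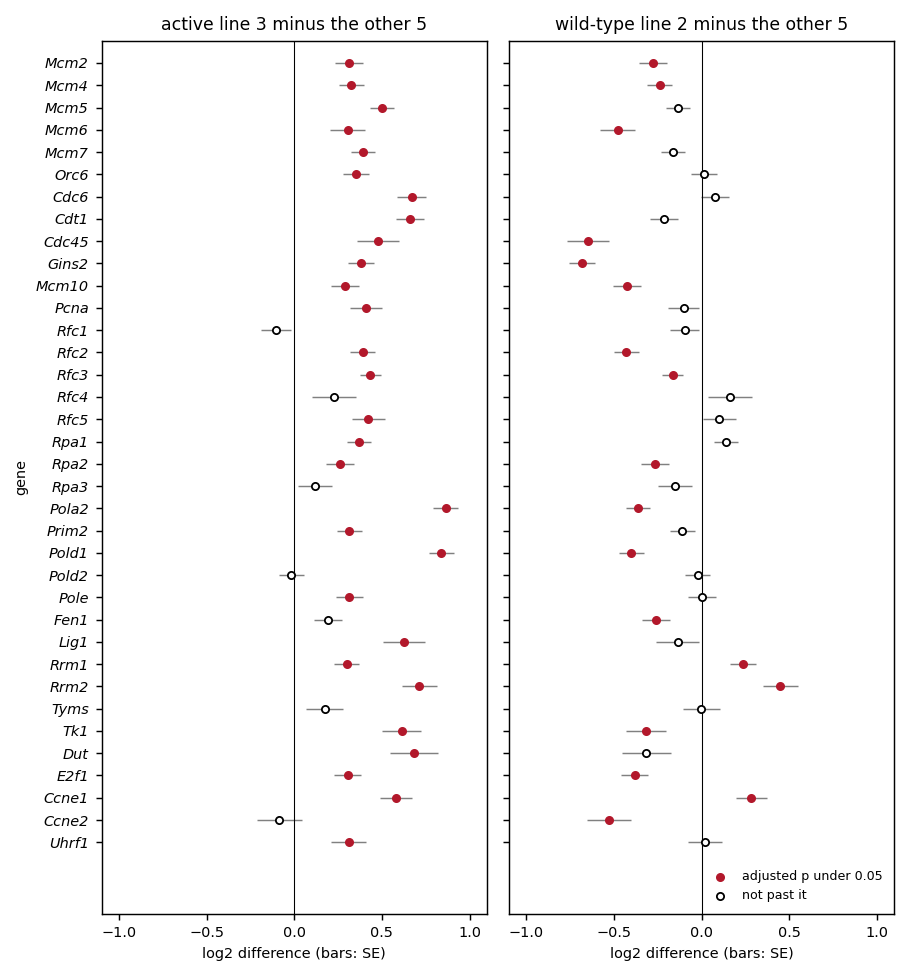
Differences of active line 3 and of wild-type line 2 from the mean of the other 5 lines (log2, points with bars of 1 SE from the array spread, filled where the adjusted p is under 0.05) for the 36 genes by role. In active line 3 the differences run between -0.11 and 0.86, and in wild-type line 2 between -0.68 and 0.45.

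Of the clamp and its loader, 4 of 6 genes were higher in active line 3. Pcna, the sliding clamp that holds the polymerases on DNA, differed by 0.41. Rfc2 and Rfc3, loader subunits, had the widest ranges of the group. Rfc2 read 11.60 and 11.53 on the arrays of active line 3, against 11.52 and 11.37 in active line 1, 11.09 and 11.22 in active line 2, 11.35 and 11.23 in wild-type line 1, 10.87 and 10.89 in wild-type line 2 and 11.09 and 11.10 in wild-type line 3. Active lines 3 and 1 were high together and wild-type line 2 was low, with active line 3 higher by 0.39 (SE 0.0701, 1.31-fold, adjusted p = 6.38e-04). Rfc3 read 9.70 and 9.74 on the arrays of active line 3, against 9.28 and 9.24 in active line 1, 9.16 and 9.22 in active line 2, 9.39 and 9.40 in wild-type line 1, 9.23 and 9.21 in wild-type line 2 and 9.37 and 9.34 in wild-type line 3. Both arrays of active line 3 lay above all others for Rfc3, which was higher there by 0.43 (SE 0.0596, 1.35-fold, adjusted p = 8.49e-05). Rfc5 was higher by 0.42, while Rfc4 differed by 0.23 (adjusted p = 0.145). The large loader subunit Rfc1 had the narrowest range of line means of all 36 genes, 0.18. Rfc1 read 10.84 and 10.58 on the arrays of active line 3, against 10.83 and 10.95 in active line 1, 10.82 and 10.80 in active line 2, 10.73 and 10.94 in wild-type line 1, 10.65 and 10.78 in wild-type line 2 and 10.80 and 10.86 in wild-type line 3. No line stood clear of all others, and the sign of the difference in active line 3 (-0.11, adjusted p = 0.317) depended on which of its arrays was used.

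RPA, the complex that coats single-stranded DNA, had 2 of 3 subunits higher in active line 3. Its large subunit Rpa1 read 13.53 and 13.44 on the arrays of active line 3, against 13.22 and 13.22 in active line 1, 13.13 and 13.12 in active line 2, 12.96 and 13.02 in wild-type line 1, 13.36 and 13.23 in wild-type line 2 and 12.87 and 13.04 in wild-type line 3. Active line 3 was highest, by 0.37 (SE 0.0693, 1.29-fold, adjusted p = 8.7e-04), and wild-type lines 1 and 3 were lowest. Rpa2 was higher by 0.26, and Rpa3 differed by 0.12 (adjusted p = 0.324).

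The polymerase group held the largest differences of the 36 genes in active line 3. Pola2, the regulatory subunit of polymerase alpha, read 10.04 and 9.94 on the arrays of active line 3, against 9.15 and 9.19 in active line 1, 9.26 and 9.18 in active line 2, 9.22 and 9.26 in wild-type line 1, 8.91 and 9.02 in wild-type line 2 and 9.10 and 8.95 in wild-type line 3. The arrays of active line 3 lay far above every other array, and the difference was 0.86 (SE 0.0696, 1.82-fold, adjusted p = 9.97e-07). Pold1, the catalytic subunit of polymerase delta, read 11.55 and 11.58 on the arrays of active line 3, against 10.75 and 10.82 in active line 1, 10.85 and 11.03 in active line 2, 10.62 and 10.62 in wild-type line 1, 10.44 and 10.62 in wild-type line 2 and 10.77 and 10.74 in wild-type line 3. Active line 3 was again apart from all lines, by 0.84 (SE 0.0723, 1.79-fold, adjusted p = 1.82e-06). Prim2, the large primase subunit, and Pole, the catalytic subunit of polymerase epsilon, were both higher by 0.31. Pold2, an accessory subunit of polymerase delta, differed by -0.02 (adjusted p = 0.853), unlike its partner Pold1. Of the pair that joins and trims Okazaki fragments, the ligase gene Lig1 passed. Lig1 read 10.00 and 10.26 on the arrays of active line 3, against 9.42 and 8.97 in active line 1, 9.51 and 9.56 in active line 2, 9.79 and 9.60 in wild-type line 1, 9.63 and 9.36 in wild-type line 2 and 9.48 and 9.74 in wild-type line 3. Active line 3 was higher by 0.63 (SE 0.122, 1.54-fold, adjusted p = 0.00115), and active line 1 held the lowest array. The other 2 Lig1 probes differed by 0.16 and 0.37 in active line 3. Fen1, the flap nuclease, differed by 0.19 (adjusted p = 0.0602).

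**Figure D3:**
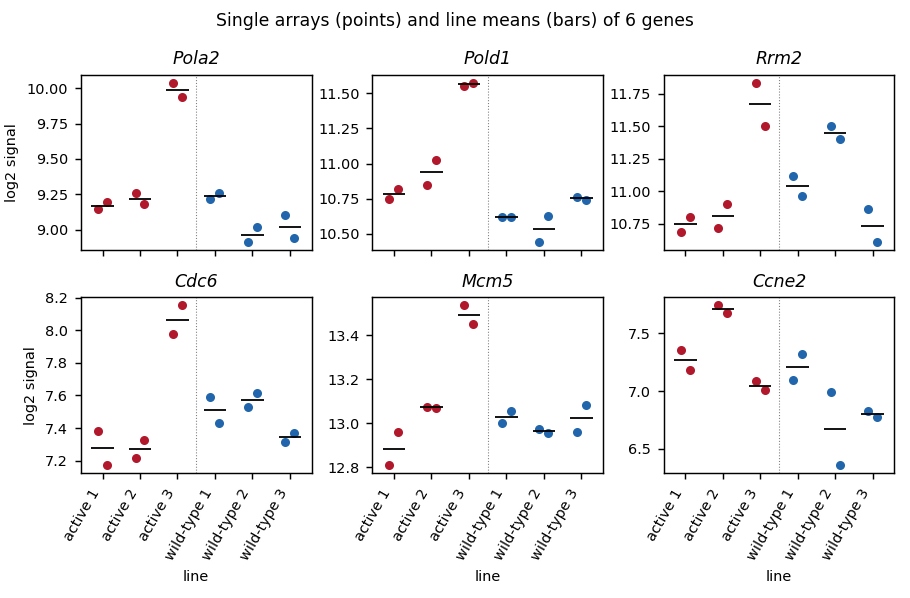
Log2 signal on both arrays of each line (points; bars are line means) for Pola2, Pold1, Rrm2, Cdc6, Mcm5 and Ccne2. Pola2 and Pold1 stand highest in active line 3 with no overlap, whereas Ccne2 is highest in active line 2.

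In the nucleotide group 4 of 5 genes were higher in active line 3. Rrm2, the small subunit of ribonucleotide reductase, which is made in S phase, read 11.84 and 11.50 on the arrays of active line 3, against 10.69 and 10.81 in active line 1, 10.71 and 10.90 in active line 2, 11.12 and 10.96 in wild-type line 1, 11.50 and 11.40 in wild-type line 2 and 10.86 and 10.61 in wild-type line 3. Active line 3 and wild-type line 2 were both high, the first by 0.71 (SE 0.1, 1.64-fold, adjusted p = 1.04e-04) over the other 5 lines. Rrm1, the large subunit, was higher by 0.30. Dut, the dUTPase that keeps uracil out of DNA, read 8.79 and 8.16 on the arrays of active line 3, against 7.96 and 8.02 in active line 1, 7.87 and 7.83 in active line 2, 7.72 and 7.47 in wild-type line 1, 7.82 and 7.46 in wild-type line 2 and 7.80 and 7.93 in wild-type line 3. Replicate 1 of active line 3 carried much of its difference of 0.68 (SE 0.14, 1.61-fold, adjusted p = 0.00153), which was 0.37 without that array (adjusted p = 0.0507). Tk1, the cytosolic thymidine kinase, was higher by 0.61. Tyms, the thymidylate synthase gene, differed by 0.17 (adjusted p = 0.195).

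Of the 4 G1/S regulators and methylation genes 3 were higher in active line 3. E2f1, the transcription factor, and Uhrf1, which guides maintenance methylation behind the fork, were higher in active line 3 by 0.30 and 0.31. The 2 cyclin E genes, whose products activate the kinase that drives S phase entry, ran apart. Ccne1 was higher in active line 3 by 0.58 (SE 0.0904, 1.49-fold, adjusted p = 2.26e-04), and it was lower by 0.53 in active line 2 and by 0.61 in wild-type line 3. Ccne2 read 7.08 and 7.01 on the arrays of active line 3, against 7.35 and 7.18 in active line 1, 7.74 and 7.67 in active line 2, 7.09 and 7.32 in wild-type line 1, 6.99 and 6.36 in wild-type line 2 and 6.83 and 6.77 in wild-type line 3. It was highest in active line 2, by 0.70 over the other 5 lines (adjusted p = 0.00123), and the difference in active line 3 was -0.09 (adjusted p = 0.597). With Pola2 and Pold1, Ccne2 was 1 of 3 genes whose line means spanned more than 1 log2 unit, a span that 20.4% of all tested genes exceeded.

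Wild-type line 2 was the line at the other end. There, 15 of 36 genes were lower than in the other 5 lines and 3 were higher, where 20.2% and 18.7% of all genes were, and it had the lowest line mean for 15 of 36 genes (18.5% of all genes). Gins2 read 9.59 and 9.39 on the arrays of wild-type line 2, against 9.93 and 9.87 in active line 1, 10.17 and 10.35 in active line 2, 10.35 and 10.41 in active line 3, 10.23 and 10.17 in wild-type line 1 and 10.19 and 10.11 in wild-type line 3. Both arrays of wild-type line 2 lay below all others, at -0.68 (SE 0.0748, 0.623-fold, adjusted p = 3.16e-05) from the other 5 lines. Cdc45 followed at -0.65 (SE 0.12, 0.638-fold, adjusted p = 0.0014). Mcm10, Mcm6, Mcm2, Mcm4, Rfc2, Rfc3, Rpa2, Pola2, Pold1, Fen1, Tk1, E2f1 and Ccne2 were the other genes lower in that line. Rrm2, Rrm1 and Ccne1 were higher by 0.45, 0.24 and 0.28, in a line in which Mcm2, Mcm4 and Mcm6 were lower. A second, dimmer Rrm2 probe differed there by 0.0619, so the Rrm2 call rests on the brighter probe. The 15 genes were 7 without replicate 2 of wild-type line 2. No share of all genes was computed without that array, so the 7 cannot be set against all genes. With median scaling 23 were lower, beside 31.1% of all genes. The summed signal of the fibroblast markers was highest in wild-type line 2, at 9.47, against 8.33 to 8.72 in the other lines. That sum rests on Thy1, which read 8.67 in wild-type line 2 against 4.76 to 5.34 in the other lines. Pdgfra, the only fibroblast marker tested, read 6.86 in wild-type line 2 against 6.85 to 7.35 in the others, Col1a1 was detected on 2 arrays and highest in active line 3 (6.91), and the other 5 of the 8 markers were detected on no array. The part of Thy1 in the result was not tested.

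**Figure D4:**
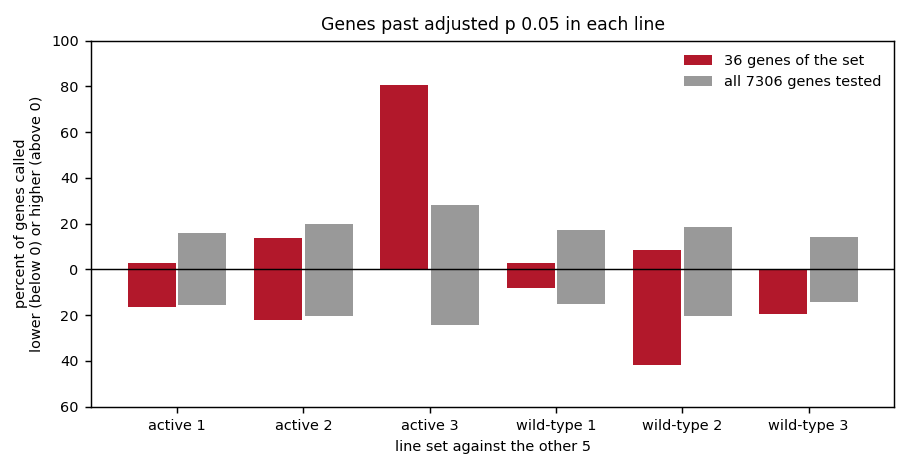
Share of the 36 genes (percent) that were higher or lower in each line than in the other 5 at an adjusted p under 0.05, beside the same share of all 7306 tested genes. In active line 3, 29 of 36 were higher beside 28.3% of all genes, and in wild-type line 2, 15 of 36 were lower beside 20.2%.

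The remaining lines had fewer such genes. In active line 1 the loader gene Rfc2 was higher and Mcm5, Mcm7, Cdc6, Pole, Lig1 and Rrm2 were lower, 1 and 6 of 36 beside 15.8% and 15.6% of all genes. In active line 2, 5 were higher, namely Mcm6, Gins2, Pold2, E2f1 and Ccne2, and 8 were lower, beside 20% and 20.2% of all genes. The lower ones were Cdc6, Rfc3, Rfc4, Pole, Rrm1, Rrm2, Tyms and Ccne1, which include 3 of the 5 nucleotide genes, with Rrm1 at -0.52 (adjusted p = 2.21e-04). Wild-type line 1 had Pole higher and Rpa1, Pold1 and Pold2 lower, 1 and 3 of 36 beside 17.1% and 15.3%. Wild-type line 3 had none higher and 7 lower (Orc6, Rpa1, Pola2, Rrm2, E2f1, Ccne1 and Ccne2), beside 14.2% in each direction. With median scaling no gene was called in active line 1 or wild-type line 1 and 1 in wild-type line 3, while active line 2 had 13 higher and none lower, beside 37.1% and 2.05% of all genes.

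Across the 6 lines 32 of 36 genes differed beyond the array spread (moderated F test, 77.6% of all genes). Among the 3 active lines 27 did (60.9% of all genes), and among the 3 wild-type lines 11 did (46.4%). With median scaling these counts were 25, 11 and 3, beside 57.4%, 37.6% and 24.3% of all genes. The genotype held 22.1% of the variation in the 36 genes, lines within a genotype held 65.2%, and repeat arrays held 12.7%. For all tested genes these shares were 15.3%, 78.9% and 5.75%. They are shares of summed squares over fewer genotypes than lines, so their sizes cannot be set against each other directly.

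Between genotypes none of the 36 genes passed the adjusted threshold, with the line as the replicate, and neither did any of the 7306 genes (0% higher and 0% lower by limma). None of the 36 had an unadjusted p under 0.05, where 2.03% of all genes were higher and 3.59% lower at that level. The fold change was above 0 for 31 of 36 (52.5% of all genes), among them Rrm2 at 0.00 to 2 decimals, with a median of 0.15 beside 0.01 for all genes. Without active line 3 it was above 0 for 22 of 36, with a median of 0.05. Mcm10 had the smallest p, averaging 9.12 ± 0.07 over active lines and 8.80 ± 0.20 over wild-type lines (SD over 3 lines of each genotype), a difference of 0.32 (95% interval -0.01 to 0.65, adjusted p = 0.854). It read 9.20 and 9.19 on the arrays of active line 3, against 9.02 and 9.08 in active line 1, 9.18 and 9.02 in active line 2, 8.86 and 9.12 in wild-type line 1, 8.61 and 8.59 in wild-type line 2 and 8.87 and 8.73 in wild-type line 3. The 3 active line means were all above the 3 wild-type ones, as they were for Pcna, Pold1 and Fen1, 4 of 36 beside 5.97% of all genes. None of the 36 had all active lines below (6.47% of all genes).

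Other genes near the top of that order did not pass the adjusted threshold either. Dut averaged 8.11 ± 0.33 over active lines and 7.70 ± 0.15 over wild-type lines, a difference of 0.40 (adjusted p = 0.858). Fen1 averaged 12.28 ± 0.05 over active lines and 12.06 ± 0.11 over wild-type lines, a difference of 0.23 (adjusted p = 0.858). Fen1 read 12.47 and 12.20 on the arrays of active line 3, against 12.26 and 12.21 in active line 1, 12.31 and 12.25 in active line 2, 12.14 and 12.22 in wild-type line 1, 11.91 and 12.003 in wild-type line 2 and 11.97 and 12.11 in wild-type line 3, so the genotypes overlapped by array. In the other direction Rfc4 averaged 9.66 ± 0.28 over active lines and 9.91 ± 0.02 over wild-type lines (-0.25, adjusted p = 0.898). Rfc4 read 9.99 and 9.96 on the arrays of active line 3, against 9.79 and 9.33 in active line 1, 9.30 and 9.61 in active line 2, 10.11 and 9.75 in wild-type line 1, 9.88 and 9.97 in wild-type line 2 and 9.81 and 9.97 in wild-type line 3, lowest in active lines 1 and 2 and not in active line 3. Pole averaged 7.70 ± 0.31 over active lines and 7.90 ± 0.10 over wild-type lines (-0.20, adjusted p = 0.929). It read 8.06 and 8.06 on the arrays of active line 3, against 7.54 and 7.52 in active line 1, 7.51 and 7.52 in active line 2, 8.13 and 7.85 in wild-type line 1, 7.86 and 7.74 in wild-type line 2 and 7.84 and 7.95 in wild-type line 3, again with active line 3 apart from the other active lines. Tyms averaged 10.96 ± 0.21 over active lines and 11.09 ± 0.15 over wild-type lines (-0.13, adjusted p = 0.943). It read 11.31 and 11.03 on the arrays of active line 3, against 11.08 and 10.83 in active line 1, 10.71 and 10.81 in active line 2, 11.29 and 11.25 in wild-type line 1, 11.21 and 10.84 in wild-type line 2 and 10.92 and 11.05 in wild-type line 3, and the genotypes overlapped. On simulated data this comparison recovered 29 of 100 genes changed by 1 log2 unit and 0 of 100 changed by 0.5, with 2 false calls over 7306 genes. A simulated line against the other 5 recovered 89 of 100 changed by 0.5, with 9 false calls. The other 5 lines had no effect of their own there. Far fewer genes were changed than were called in active line 3, so recovery in the real data may differ.

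**Figure D5:**
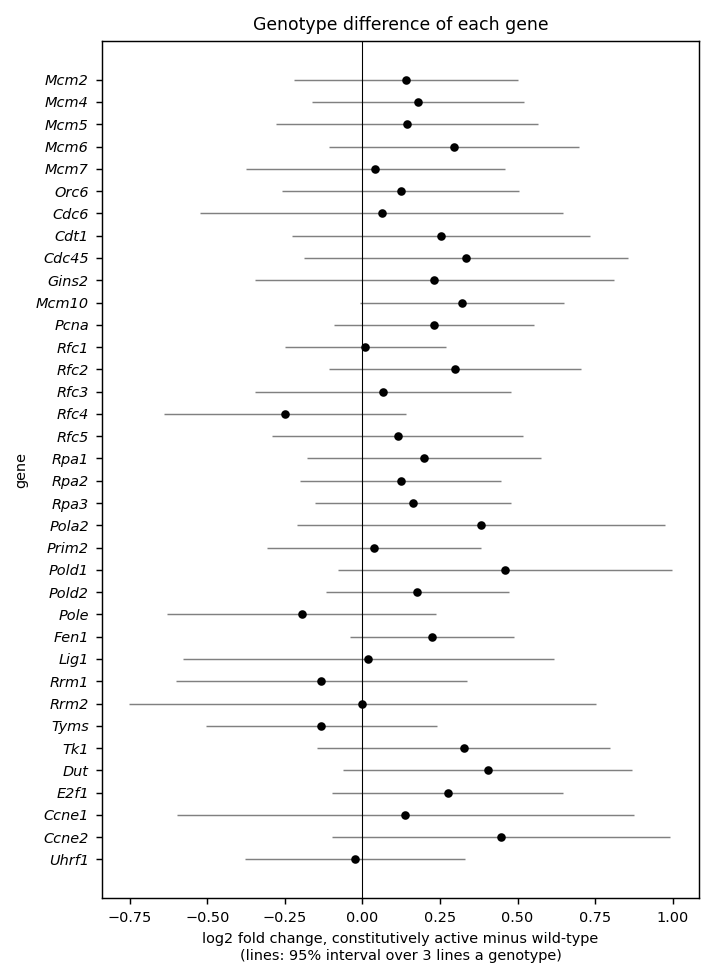
Log2 fold change of constitutively active over wild-type lines (points, with 95% intervals over 3 lines each) for the 36 genes by role. The point is above 0 for 31 of 36 genes, and every interval includes 0.

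Other genes of the same pathways were counted in the lines that stood apart. In active line 3, 12 of 28 tested further replication factors were higher and 1 was lower (Chtf8), beside 28.3% and 24.4% of all genes. In wild-type line 2, 1 of the 28 was higher and 10 were lower, beside 18.7% and 20.2%. Wdhd1, which ties polymerase alpha to the helicase, had a mean of 7.81 in active line 3, against 6.47 in active line 1 (detected on 1 of 2 arrays), 7.26 in active line 2, 7.14 in wild-type line 1, 6.43 in wild-type line 2 and 7.06 in wild-type line 3. That was 0.94 above the other 5 lines (adjusted p = 3.3e-06). Orc3, a subunit of the origin recognition complex, was highest in active line 2 instead, at 8.24 against 6.85 to 7.46 in the other lines. Of 20 further nucleotide enzymes 9 were higher in active line 3 and 1 was lower (Tk2), while in wild-type line 2 there were 4 higher and 5 lower, beside the same shares of all genes. Shmt2, which feeds one-carbon units from serine, was higher by 0.73, and Samhd1, which degrades deoxynucleotides, by 0.51. Samhd1 was highest in wild-type line 2, at 9.09 against 8.71 in active line 3, and 0.97 above the other 5 lines (adjusted p = 2.81e-06).

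Mitotic genes gave other counts in active line 3. Of 21 tested, 3 were higher (Aurka, Bub3, Spc24) and 4 lower (Cenpe, Kif23, Mad2l1, Nuf2), beside 28.3% and 24.4% of all genes. With no threshold applied, 15 of the 21 lay above the other 5 lines there, beside 3914 of all 7306 genes. Their median stood 0.13 above the six-line mean, against 0.30 for the 36 replication genes and 0.03 for all genes. Kif23, a kinesin of cell division, had a mean of 9.86 in active line 3 against 10.39 to 11.24 in the other lines. Nuf2, a kinetochore gene, was undetected in active line 3 and in wild-type lines 1 and 3. In wild-type line 2 none of the 21 mitotic genes was lower and 4 were higher (Bub3, Cenpa, Mad2l1 and Nuf2), beside the 15 replication genes that were lower and the 20.2% lower and 18.7% higher among all genes. In active line 2, 10 of 21 mitotic genes were lower, beside 20.2% of all genes. Whether mitotic and replication genes differed in these counts was not tested. Of 21 further G1/S regulators 8 were higher and 4 lower (Ccnd2, Cdkn2a, Cdkn2b and Tfdp2) in active line 3, beside 28.3% and 24.4% of all genes. Cdkn2a and Cdkn2b, inhibitors of the cyclin-dependent kinases of G1, were both undetected there. Cdkn2b was undetected in active line 2 as well, with line means of 10.78 for active line 1, 10.94 for wild-type line 1, 10.58 for wild-type line 2 and 8.07 for wild-type line 3. Cdkn2a had means of 8.22 for active line 1, 7.79 for active line 2, 7.10 for wild-type line 1, 8.46 for wild-type line 2 and 6.11 for wild-type line 3, where 1 of 2 arrays detected it.

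Of the 36 genes 9 had more than 1 probe detected in at least 3 lines, and their probes differed in how far they repeated these differences. In active line 3, 45 of the 49 probes that passed the filter lay above the other 5 lines. The 4 below were those of Rfc1, Pold2 and Ccne2 and the second Mcm7 probe. The 49 include the 36 tested probes, of which 33 lay above, so few of them are further probes. Of all 7306 tested genes 3914 lay above in that line. All 3 Gins2 probes lay below the other 5 lines in wild-type line 2, at -0.74 to -0.46. The Rfc5 probes disagreed there, with the brighter at 0.10 and the dimmer at -0.63.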

How the data were processed

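Total RNA of 6 mouse cell lines was amplified, labelled with biotin and hybridised to 12 Illumina bead arrays, per the labels' protocols. Per the file headers, the deposited raw table pairs a linear bead intensity with a detection fraction for each of 46632 probes. Intensity increased with this fraction, so its complement (1 minus the deposited value) was taken for the detection p-value. The authors' processed log2 values, from the deposited series matrix, served as an alternative, and the sources used here do not give how they were corrected and normalized. BeadStudio 3.1.7 and lumi are named in the submitters' processing notes.

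Raw intensities were background-corrected by detection p-value with an offset of 16, quantile normalized and put on the log2 scale (neqc, limma 3.58.1, R 4.3.3). A probe was used if 3 or more of the 6 lines had it detected (p under 0.01) on each array, and each gene was represented by its brightest kept probe, which gave 7306 genes. Of all probes 29976 had 1 gene symbol in the platform annotation, 10 had several and 16646 were unnamed here. The offset understates folds of dim genes.

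Genotypes were compared over line means, 3 against 3, with lmFit and eBayes (two-sided) and Benjamini-Hochberg adjustment over all genes at 0.05. An exact permutation test of 3 against 3 lines cannot go below p = 0.1. A model with a mean for each line, with the arrays of a line as the residual, gave moderated F tests among lines and the contrast of each line with the other 5. These 6 contrasts share lines and are not independent. Genes and lists were chosen with earlier results of these data known. Named genes with values on every array are the 1 or 2 genes with the widest range of line means in each role group, those with the 3 smallest genotype p-values in each direction and the gene with the narrowest range; Gins2 and the genes named in counts were added after their values were seen. Of the other pathway lists the 2 genes with the widest range are named, with others added likewise. Alternatives were median scaling, the deposited log2 values, other probe filters, the mean of a gene's probes, a replicate block, the line as a random block, and leaving out each array or line. The number of arrays limits the precision. Array number was not used to pair lines in the main fits. Of 15 pairs of lines, 2 had correlated deviations over 0.1 (range -0.26 to 0.31). These were active line 1 with wild-type line 1 (0.27) and with wild-type line 2 (0.31). Such correlations cannot tell whether some arrays of the same number were processed together. Both tests were also run on simulated data, made with the gene spreads estimated from the real data. No source used here names a slide or hybridisation batch, and one that went with a line cannot be told apart from that line.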

Additional observations from a re-analysis of the deposited data

How the results depend on the processing

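Of the results recomputed under each setting, 458 counts and medians and 413 differences of named genes stayed close or on their side of the threshold in the same direction. Another 65 counts and medians moved, and of the differences 5 no longer passed and 2 changed sign. Some of these results had little room to change, such as genotype counts of 0 and genotype differences far from the threshold. The tallies therefore do not measure how robust the line differences are. A line's median counted as moved where it shifted by more than 0.0324, the SD between arrays of a line pooled over lines. This yardstick was settled after the values were seen. Median fold changes between genotypes had a wider limit, 0.1398, the SD over lines of the lines' medians. Counts had a limit on their ratio, given below. Under median scaling 25 genes differing among the 6 lines, against 32, counted as close. The 17 higher in active line 3, against 29, counted as moved. Scaling by array medians shifted all genes of a line by up to 0.26 (active line 2) and -0.24 (wild-type line 2), and the genotype fold change of all genes to a median of 0.211. Under it the genes' median genotype fold change was 0.402 and that of Tyms turned to 0.11. Counts of differing genes were 11 among active lines and 3 among wild-type lines. Genes higher and lower were 0 and 0 in active line 1, 13 and 0 in active line 2, 17 and 0 in active line 3, 0 and 0 in wild-type line 1, 0 and 23 in wild-type line 2 and 0 and 1 in wild-type line 3. The lines' medians were -0.0252, 0.237 and 0.339 in active lines 1, 2 and 3, and -0.048 and -0.400 in wild-type lines 1 and 2. The cause was not tested beyond the shift of all genes.

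Other settings moved small counts. The deposited log2 values gave 5 genes lower in wild-type line 1. Probes detected on all 12 arrays gave 2 higher there, and no filter gave 0 higher there and 5 lower in active line 2. With the mean of a gene's probes 0 genes were higher in active line 1 and 2 in wild-type line 1, with medians of -0.0064 in active line 2 and 0.268 in active line 3. With array number as a replicate block 2 genes were higher and 6 lower in wild-type line 1. There, no other count moved by over 1.5 times, the limit past which counts were called moved under every setting. The line number as a replicate block left 0 genes between genotypes, and the line as a random block left 0 of the 36.

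Leaving out 1 array at a time gave 20 to 29 genes higher in active line 3 and 7 to 16 lower and 0 to 3 higher in wild-type line 2. It gave 6 to 11 genes differing among wild-type lines, 0 to 2 higher and 1 to 7 lower in active line 1, 2 to 5 and 3 to 9 in active line 2, 0 to 2 and 0 to 6 in wild-type line 1, and 2 to 7 lower in wild-type line 3. Medians ran between -0.047 and -0.0051 in active line 2, 0.267 and 0.321 in active line 3, -0.0125 and 0.0275 in wild-type line 1, -0.166 and -0.120 in wild-type line 2, and -0.0851 and -0.0229 in wild-type line 3. No share of all genes was computed beside the counts with an array left out. Rfc1 in active line 3 turned to 0.029 without that line's replicate 2. Leaving out a line gave 0 to 2 of all genes between genotypes, the 2 without wild-type line 2 and none of them among the 36. Leaving a line out of the other 5 gave 1 to 5 genes higher and 12 to 18 lower in wild-type line 2. Shares of all genes are not given here for that setting. Line means of 2 arrays limit how small a difference can be called.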
